A study of Mus musculus with 15 samples.

Results

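The 150 most expressed long noncoding RNA genes of the table were followed through 5 stages of germ cell induction in culture. They were taken from 8117 GENCODE M21 genes of type lincRNA (5206 genes) or antisense (2911 genes) on chromosomes 1 to 19. The imprinted H19, Meg3, Rian, Mirg, Kcnq1ot1, Airn and Peg13 were left out by name, and other genes were not screened for imprinting. Each gene was ranked by its highest condition mean in CPM (a gene's count scaled to a fixed library total), and the first 150 were kept. The table holds 55536 genes in all. The members comprised 119 lincRNA and 31 antisense genes, and all 150 were among the 18090 genes with enough counts to be tested. The last 3 members were Gm33301 (5.07 CPM in its highest condition), Gm29737 (5.06) and 2900076A07Rik (5.02), and the first 3 genes outside were Gm29895 (4.96), Gm40849 (4.91) and a gene that shares the symbol Gm10479 with a member (4.88). Because the ranking used the same condition means, a gene high at 1 stage entered more easily than a gene of even level, and every count of members by stage is a description. So are the fold changes and p-values of members named for 1 high stage, since the same values served to choose them.

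RNA-seq covered 15 mouse libraries, 3 in each of 5 groups. All groups came from embryonic stem cells with a Stella-eGFP reporter, rtTA and doxycycline-inducible transgenes for Prdm1, Prdm14, Tfap2c and Nanog (4TF). ESCs were kept in 2i and LIF without doxycycline. EpiLCs, which stand for the formative epiblast, were made from them over 48 h with Activin A, bFGF and knockout serum replacement. PGCLCs, the counterpart of primordial germ cells, were made from EpiLCs with doxycycline and no inducing cytokines, and sorted as Stella-eGFP+ cells at day 2, 4 or 6 (D2PGCLC, D4PGCLC, D6PGCLC). No group had cells without the transgenes. The sources used here do not say whether 1 clone or several were sequenced, and the results may not hold for other lines. The labels do not say whether the 3 samples of a group were separate cultures, so p-values measure the spread between these samples, which may be technical.

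Long noncoding RNAs are transcribed and mostly spliced as messenger RNAs are, but are not known to be translated into conserved proteins. Some act as the RNA itself, as Malat1 in nuclear speckles and Neat1 as the scaffold of paraspeckles do. Others are precursors of microRNAs or small nucleolar RNAs, and for many the act of transcription next to a coding gene is the only known trait. In mouse embryonic stem cells a set of Platr genes (pluripotency-associated transcripts) and Lncenc1 are known for high expression in the undifferentiated state.

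The libraries held 22555021 to 42725681 counts, and 18061 to 24343 genes had at least 1 count, the lowest number in D6PGCLC replicate 1, where the other 14 libraries had at least 21103. That library had 4 members at 0 counts, and no other library had more than 1. Summed levels of naive markers ran from 2123 to 2202 CPM in ESC, 242 to 269 CPM in EpiLC and 1070 to 1208 CPM in PGCLCs. Formative markers ran from 2662 to 2862 CPM in EpiLC. Germ cell markers ran from 1080 to 1617 CPM in PGCLCs against 179 to 189 CPM in ESC and 313 to 341 CPM in EpiLC. That list includes Prdm1, Prdm14 and Tfap2c, whose transgene and endogenous reads were not separated. It also includes Dppa3 (Stella), the gene of the sorting reporter. The rise of this sum in PGCLCs was therefore partly set by the design. Endoderm, mesoderm and feeder fibroblast marker lists each summed to at most 19.1 CPM in every library, where Mesp1 was at 0 in all EpiLC and D2PGCLC libraries and Postn at 0 in all ESC and D2PGCLC libraries. Neural markers summed to 34.0 to 118 CPM. In bulk samples, fewer cells of a type and less RNA per cell cannot be told apart.

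Annotated microRNA genes lie within 6 members. Mature products of 3 of these hosts, Mir17hg, Mir142hg and Mir9-3hg, are shown because the seed (bases 2 to 8, in capitals) decides which targets a microRNA can pair with. The sequences are RefSeq's on GRCm38.p6, and the counts measure the host transcripts and not the microRNAs.
mmu-miR-17-5p (Mir17hg): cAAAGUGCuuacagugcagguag
mmu-miR-18a-5p (Mir17hg): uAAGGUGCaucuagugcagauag
mmu-miR-19a-3p (Mir17hg): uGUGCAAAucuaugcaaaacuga
mmu-miR-19b-3p (Mir17hg): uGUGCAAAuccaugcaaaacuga
mmu-miR-20a-5p (Mir17hg): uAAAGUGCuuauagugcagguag
mmu-miR-92a-3p (Mir17hg): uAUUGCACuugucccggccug
mmu-miR-142a-3p (Mir142hg): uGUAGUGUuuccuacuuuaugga
mmu-miR-9-5p (Mir9-3hg): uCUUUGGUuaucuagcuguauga
Within the Mir17hg cluster, miR-17-5p and miR-20a-5p share the seed AAAGUGC, and miR-19a-3p and miR-19b-3p share GUGCAAA. The seeds of the other products printed differ from these.

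Sequence also marks 2 of the most abundant members. The GENCODE transcript of 2900097C17Rik, which RefSeq lists as Norad, a long RNA known to bind Pumilio proteins, holds 11 copies of the Pumilio recognition motif TGTANATA on its 4915 bases (2.24 per kb). They are shown in capitals with 3 bases on each side, named by the position of the first motif base in the transcript.
base 651: ctgTGTATATAata
base 1147: tgcTGTAAATAcct
base 1336: cttTGTACATAgtg
base 1523: ctgTGTATATAgtg
base 1624: cttTGTAAATAtct
base 1829: tacTGTATATAatg
base 2233: ttgTGTATATAgtt
base 2442: tgcTGTATATAttg
base 2451: tatTGTACATActg
base 2754: ctaTGTATATAggg
base 3526: aagTGTACATAacg
The other 149 members had a median of 0 copies in their longest transcript and at most 4 (Neat1, with 20771 bases, and Rab10os, with 4006). The longest transcript of 1700020I14Rik, which RefSeq lists as Oip5os1 (Cyrano), holds the site known to pair with miR-7. Capitals mark the seed in the microRNA, and in the site the bases that pair with the seed and with the 3′ part of the microRNA.
miR-7a-5p: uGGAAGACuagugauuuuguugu
Oip5os1, transcript bases 2935 to 2959: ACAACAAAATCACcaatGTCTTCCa
Here 7 seed bases and 13 bases of the 3′ part are paired. No other member had more than 5 paired 3′ bases beside a match to the 7 seed bases, when up to 5 unpaired bases were allowed in the RNA and 3 in the microRNA.

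RefSeq promoters, from 250 bases before to 50 after a start site, were found for 96 of the 150 members, 65 of them within 200 bases of the GENCODE start. Both strands were searched for 4 motifs, none of which contains another. The octamer ATTTGCAT, bound by POU factors such as Oct4, was in 8 of the 96 promoters (8.33%) and in 1.74% of all 32851 promoters of the table. TATAAA was in 5.21% of members' promoters against 13.6% of all, the TFAP2 motif GCCNNNGGC in 13.5% against 16.6%, and the PRDM14 motif GGTCTCTAA in 0 of 96 against 0.256%. For the 6 octamer promoters within 200 bases of the GENCODE start, 60 bases around the octamer are given along the gene's strand on GRCm38.p6, with the octamer in capitals as its reverse complement.
Gm20939, chr17:94864680-94864739, plus strand: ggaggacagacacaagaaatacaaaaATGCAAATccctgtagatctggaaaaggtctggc
Gm10451, chr12:76444433-76444492, plus strand: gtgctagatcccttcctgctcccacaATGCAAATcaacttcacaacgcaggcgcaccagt
Gm32856, chr8:129263392-129263451, plus strand: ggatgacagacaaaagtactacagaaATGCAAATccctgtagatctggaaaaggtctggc
2700038G22Rik, chr5:23850355-23850414, plus strand: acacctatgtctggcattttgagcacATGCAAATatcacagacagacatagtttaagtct
4833407H14Rik, chr19:53460550-53460609, plus strand: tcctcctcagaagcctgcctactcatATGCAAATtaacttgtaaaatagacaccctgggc
Gm33301, chr15:40162429-40162488, plus strand: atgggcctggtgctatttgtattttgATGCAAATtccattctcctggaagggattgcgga
The stretches of Gm20939 and Gm32856 are identical at 55 of 60 bases, so they are not independent of each other. The 6 genes had their highest means in ESC (Gm20939), EpiLC (Gm10451, Gm32856 and 2700038G22Rik), D4PGCLC (4833407H14Rik) and D6PGCLC (Gm33301).

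The members were spread over a wide range of levels. In their highest condition, 7 exceeded 100 CPM, 73 lay between 10 and 100 CPM and 70 were under 10 CPM. Members took 88.4% to 95.5% of all counts on the 8117 genes. This share includes the top 2, which took 0.300% to 1.36% of a library's counts, against 0.233% to 0.384% for the other 148 members. The top 2, Gm42418 (chr17:39846958-39848788, plus strand) and Gm26917 (chr17:39843013-39846341, plus strand), are neighbours 617 bases apart in a ribosomal RNA locus, and RefSeq lists Gm42418 as Rn18s-rs5, a pseudogene of ribosomal RNA. How much of their counts comes from ribosomal RNA was not tested. An annotated ribosomal RNA gene on the other strand covers 99.5% of the Gm42418 exon and had only 21 to 244 counts per library where Gm42418 had 81516 to 333006, so the counts keep the strands apart at this locus. Gm42418 was at 12130, 5072 and 4293 CPM in ESC, and replicate 1 of ESC lies far above the other libraries. Its spread within other groups was also wide, with 3953 ± 1889 CPM in EpiLC and 4775 ± 1829 CPM in D2PGCLC (n = 3). In D6PGCLC both were called lower than in ESC, but neither call was kept without ESC replicate 1 (log2 fold change -0.66 for Gm42418 and -0.88 for Gm26917 without it).

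**Figure D1:**
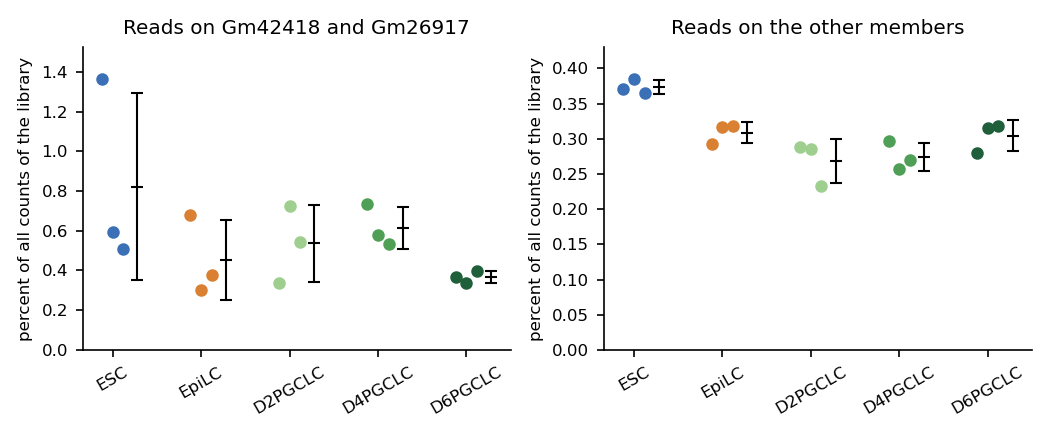
Percent of each library's counts on Gm42418 and Gm26917 (left) and on the other 148 members (right), by group. Points are libraries and bars beside them the mean and SD of 3. On the left ESC replicate 1 stands at 1.36%, and on the right the 3 ESC libraries lie above the 12 others.

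The 2 ribosomal members took 0.300% to 1.36% of a library's counts and the other 148 members 0.233% to 0.384%. For those 148, the share was 0.373% ± 0.0101 in ESC, 0.309% ± 0.0146 in EpiLC, 0.269% ± 0.0314 in D2PGCLC, 0.275% ± 0.0200 in D4PGCLC and 0.305% ± 0.0217 in D6PGCLC (SD, n = 3 each). The 3 ESC libraries, at 0.365% to 0.384%, lay above all 12 other libraries. The PGCLC days overlapped.

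Levels of different genes were compared as CPM per kilobase of exon. After the ribosomal members came Gm10076 (156 CPM per kb in D6PGCLC), which RefSeq types as a pseudogene, then Lncenc1 (137 in EpiLC), Platr10 (108 in EpiLC), Gm42047 (104 in ESC) and Malat1 (75.7 in ESC). Lncenc1 varied little, from 345 to 492 CPM over all 15 libraries. Gm42047, which starts 3678 bases from Klhdc4 and is transcribed away from it, was at 593, 598 and 563 CPM in ESC and 190.3 to 385 CPM elsewhere, a gap with no overlap, although no step passed the log2 fold change of 1. Malat1 was at 581, 572 and 433 CPM in ESC, 515, 459 and 494 in EpiLC, 385, 452 and 179.9 in D2PGCLC, 436, 261 and 324 in D4PGCLC and 357, 394 and 552 in D6PGCLC. Its PGCLC libraries spread more widely than its EpiLC libraries, and no comparison was called.

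RefSeq types 102 of the members as long noncoding RNA, 1 (Nespas) as antisense RNA, 16 as protein coding and 4 as a pseudogene or transcribed pseudogene, and 27 had no entry. The 16 include Gm46430, EU599041 and Tmem250-ps, so "noncoding" is GENCODE M21's type for them. Exons of 96 members overlapped no exon of another gene. In 28 members over 10% of exon bases lay opposite a gene on the other strand, and in 4 (Mir17hg, Snhg12, Gm20707 and 2410018L13Rik) over 10% lay within a gene on the same strand, where counts could be shared.

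**Figure D2:**
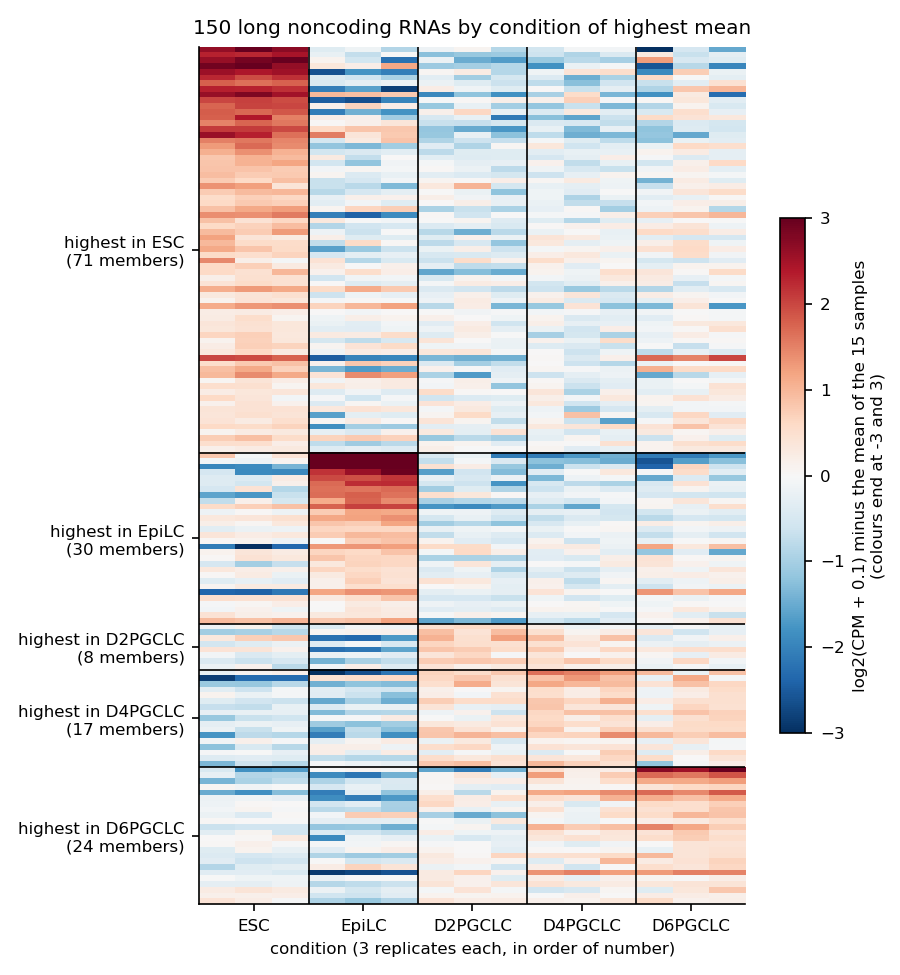
The 150 members (rows) in the 15 libraries (columns), grouped by the condition of highest mean and within a group sorted by the ratio to the second highest condition. Colour gives log2(CPM + 0.1) minus the gene's mean over the 15 libraries. The strongest red lies in the ESC and EpiLC libraries at the top of their blocks of 71 and 30 members, and the PGCLC blocks are paler except for their first rows.

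By stage, 71 members had their highest mean in ESC, 30 in EpiLC, 8 in D2PGCLC, 17 in D4PGCLC and 24 in D6PGCLC. In 36 of the 71 and 20 of the 30 all 3 libraries of that stage lay above the 12 others, where this held for 45% and 49.7% of all tested genes that peaked in ESC and EpiLC. It held for 1 of 8 members in D2PGCLC, 1 of 17 in D4PGCLC and 7 of 24 in D6PGCLC, against 15%, 6.47% and 27.5% of all tested genes that peaked there. For the other members that peaked on a PGCLC day, the highest stage overlapped another. Without D2PGCLC replicate 3 the members highest in D2PGCLC numbered 15. The lowest mean fell most often in EpiLC (52 members) and least often in D6PGCLC (13). The ratio of the highest to the lowest condition mean was at least 10 in 26 members and under 1.5 in 15.

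Differences were tested with edgeR over all 18090 genes, and a call needed both an adjusted p below 0.05 and a log2 change of more than 1 either way. From ESC to EpiLC, 19 members rose and 38 fell, 12.7% and 25.3% of members, where 14.4% and 11.9% of all genes tested were called. From EpiLC to D2PGCLC, 23 rose and 34 fell (15.3% and 22.7%), against 11% and 14.4% of all genes. In D6PGCLC against ESC, 14 were higher and 34 lower (9.33% and 22.7%), against 15.8% and 10.3%. Among the other 923 lincRNA and antisense genes tested, 13% rose and 18.9% fell from ESC to EpiLC. At the step to D2PGCLC 13.8% of them rose and 14.5% fell, and 19.2% were higher and 13.3% lower in D6PGCLC than in ESC. The highest mean of 71 members was in ESC, and the ranking used these same means, so the counts of calls against ESC are a description. Why more members were lower than higher was not tested. Without D6PGCLC replicate 1 the last comparison gave 17 higher and 29 lower, and without ESC replicate 1 it gave 13 and 35.

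Later steps moved few members. Between D2PGCLC and D4PGCLC 6 rose and 0 fell (all genes 2.56% and 0.376%). By edgeR 17 members were lower at an unadjusted p below 0.05, 2 of them with a log2 change past the limit, and DESeq2 called 1. From D4PGCLC to D6PGCLC 4 rose and 1 fell (all genes 2.29% and 0.785%), with 7 lower when D6PGCLC replicate 2 was left out and 2 higher when D4PGCLC replicate 2 was. Over the whole interval from D2PGCLC to D6PGCLC 13 rose and 7 fell (all genes 10.9% and 2.75%), and without D6PGCLC replicate 2 the lower calls numbered 11. Of the other 923 genes 1.63% rose and 0% fell at the first of these steps, 1.73% rose and 0.758% fell at the next, and 13.9% rose and 2.28% fell over the whole interval. At none of the 4 steps were 67 members called, 44.7% of them, as against 60.7% of all genes.

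**Figure D3:**
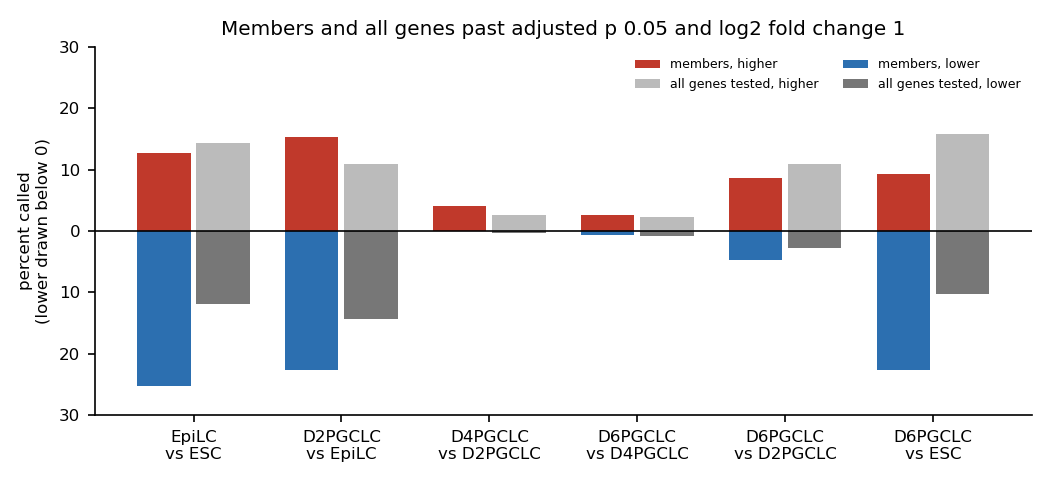
Percent of the 150 members (red, blue) and of all 18090 genes tested (greys) called higher (above 0) or lower (below 0) in 6 comparisons. Lower calls among members are at 25.3% and 22.7% in the first 2 comparisons, and between neighbouring PGCLC days the highest bar for members is 4%.

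Of the 38 members that fell from ESC to EpiLC, 14 rose again in D2PGCLC, 6 fell further and 18 (12%, against 6.38% of all genes) had no call there. Members that fell and then rose made up 9.33%, where 4.65% of all genes did. Of the 19 that rose in EpiLC, 13 fell in D2PGCLC, 6 (4%, against 6.3% of all genes) had no call and 0 rose further (all genes 0.84%), and this up and down pattern took 8.67% of members and 7.25% of all genes. The 6 that fell at both steps (4% of members, 0.824% of all genes) were Gm10479, Gm16211, Gm26564, Gm29737, Gm46332 and Mir142hg, and all 6 were also lower in D6PGCLC than in ESC. With no call in EpiLC, 9 members (6%, against 5.49% of all genes) rose in D2PGCLC and 15 (10%, against 6.34%) fell.

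Members highest in ESC were led, by the ratio to the second highest condition, by Gm11496, 2310043M15Rik, Gm33027, Gm46332 and Gm31659. Gm11496 was at 6.12, 8.07 and 6.48 CPM in ESC and 0 to 0.969 CPM in all other libraries, with a fall in EpiLC (log2 fold change -3.28 ± 0.54 (SE), adjusted p = 4.57e-05). 2310043M15Rik was at 9.91, 9.62 and 11.1 CPM in ESC and 0.748 to 2.41 CPM elsewhere (log2 fold change -2.60 ± 0.27 (SE), adjusted p = 1.81e-07 in EpiLC against ESC). Neither came back in PGCLCs, and no library of another stage reached the ESC range. Gm46332 stepped down from 17.1, 20.3 and 14.1 CPM in ESC to 2.8, 2.55 and 5.08 in EpiLC and 0.29 to 2.13 in PGCLCs. Neat1, the paraspeckle scaffold, was at 94, 84.9 and 91.7 CPM in ESC, 19.5, 22 and 24.2 in EpiLC and 11.3 to 37.1 in PGCLCs. Its fall in EpiLC (log2 fold change -1.94 ± 0.21 (SE), adjusted p = 3.90e-07) persisted to D6PGCLC (log2 fold change -1.95 against ESC), while its genomic neighbour Malat1, 22036 bases away on the same strand, was not called.

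Some ESC members fell almost to nothing in EpiLC and came part of the way back. AC131065.2 was at 64.4, 66.4 and 62.4 CPM in ESC, 2.8, 2.52 and 4.02 in EpiLC and 12.9 to 26.3 in PGCLCs. It fell in EpiLC (log2 fold change -4.27 ± 0.22 (SE), adjusted p = 1.22e-11), rose in D2PGCLC (log2 fold change 2.39 ± 0.22 (SE), adjusted p = 2.84e-08) and stayed below ESC in all 9 PGCLC libraries. Gm31659 went from 9.91, 9.04 and 9.87 CPM to 0.18, 0.399 and 0.309 and then 1.67, 1.9 and 0.833 in D2PGCLC. Of the 14 members with this down and up pattern, 3 were higher in D6PGCLC than in ESC, 5 lower and 6 not called. The 3 that ended higher were 1110002J07Rik, 2410021H03Rik and Snhg20, where the EpiLC fall of 2410021H03Rik was not called without ESC replicate 1 or EpiLC replicate 2.

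1110002J07Rik was at 13.5, 13.5 and 12.3 CPM in ESC, 2.23, 2.42 and 2.71 in EpiLC, 20.6, 26.7 and 18.5 in D2PGCLC, 43.6, 48.8 and 40.4 in D4PGCLC and 41.5, 48.7 and 47.7 in D6PGCLC. The gain from EpiLC to D2PGCLC (log2 fold change 3.11 ± 0.15 (SE), adjusted p = 1.09e-11) was followed by day 4 libraries that lay above all day 2 libraries. Panct2, which overlaps Slco4c1 on the other strand, went from 10.9, 10.6 and 8.93 CPM in ESC to 1.62, 1.75 and 2.64 in EpiLC and 14.7, 13.8 and 12.1 in D2PGCLC (log2 fold change 2.70 ± 0.20 (SE), adjusted p = 1.78e-09). Its PGCLC range of 9.31 to 14.7 CPM overlapped the ESC values. Gm14221 moved in the same way to D2PGCLC, 13.4, 8.96 and 15.3 CPM from 1.29, 1.2 and 1.89 in EpiLC, and then fell by 1.24 on the log2 scale to D6PGCLC.

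EpiLC had the sharpest single-stage members. Miat, a nuclear RNA also called Gomafu, was at 9.45, 8.28 and 7.18 CPM in EpiLC and 0.656, 0.31 and 0.47 in ESC (log2 fold change 4.19 ± 0.50 (SE), adjusted p = 1.01e-06). In D2PGCLC it was at 0.209, 0.277 and 0 CPM, and its counts over the group were 3 in D4PGCLC and 1 in D6PGCLC, against 742 in EpiLC. The ratio of EpiLC to D6PGCLC was 909, with a 95% interval of 163 to 35962 from counting error only. Gm16233 went from 0.474, 0.443 and 0.537 CPM to 6.18, 7.98 and 7.76 in EpiLC and 0 to 0.484 in PGCLCs (log2 fold change -4.36 ± 0.41 (SE), adjusted p = 4.88e-08 at the fall). Gm2762 had 5 counts in all of ESC and 553 in EpiLC, a ratio of 98.6 (95% interval 42.0 to 305), and fell again in D2PGCLC (log2 fold change -3.89 ± 0.65 (SE), adjusted p = 5.95e-05). For these 3 genes all EpiLC libraries lay above all others.

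Other members that rose in EpiLC took different courses afterwards. 4933431E20Rik rose from 0.619, 0.222 and 0.504 CPM in ESC to 7.51, 7.52 and 7.14 in EpiLC and stayed at 2.63 to 6.85 in PGCLCs, higher in D6PGCLC than in ESC (log2 fold change 3.42 ± 0.33 (SE), adjusted p = 6.08e-08). Halr1 (also called Haunt), which is transcribed near the Hoxa cluster and is known to regulate it, was at 1.68, 2.44 and 2.45 CPM in ESC and 17, 18 and 19 in EpiLC (log2 fold change 3.14 ± 0.30 (SE), adjusted p = 6.99e-08). In PGCLCs it was at 10.7 to 30.7 CPM, with its highest mean in D4PGCLC (25.6 ± 4.43 CPM), D6PGCLC replicate 2 at 27.5 CPM and the other 2 libraries of that day at 10.7 and 12.2. Ptprtos, antisense to Ptprt, rose from 9.54, 10.4 and 11.7 to 21.9, 26.7 and 26.3 CPM in EpiLC, fell to 1.79, 1.63 and 1.9 in D2PGCLC (log2 fold change -3.86 ± 0.24 (SE), adjusted p = 1.75e-10) and was at 6.76, 5.34 and 9.04 in D6PGCLC, below all ESC libraries. Its last step up was lost when D4PGCLC replicate 1 or 2 or D6PGCLC replicate 3 was left out.

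**Figure D4:**
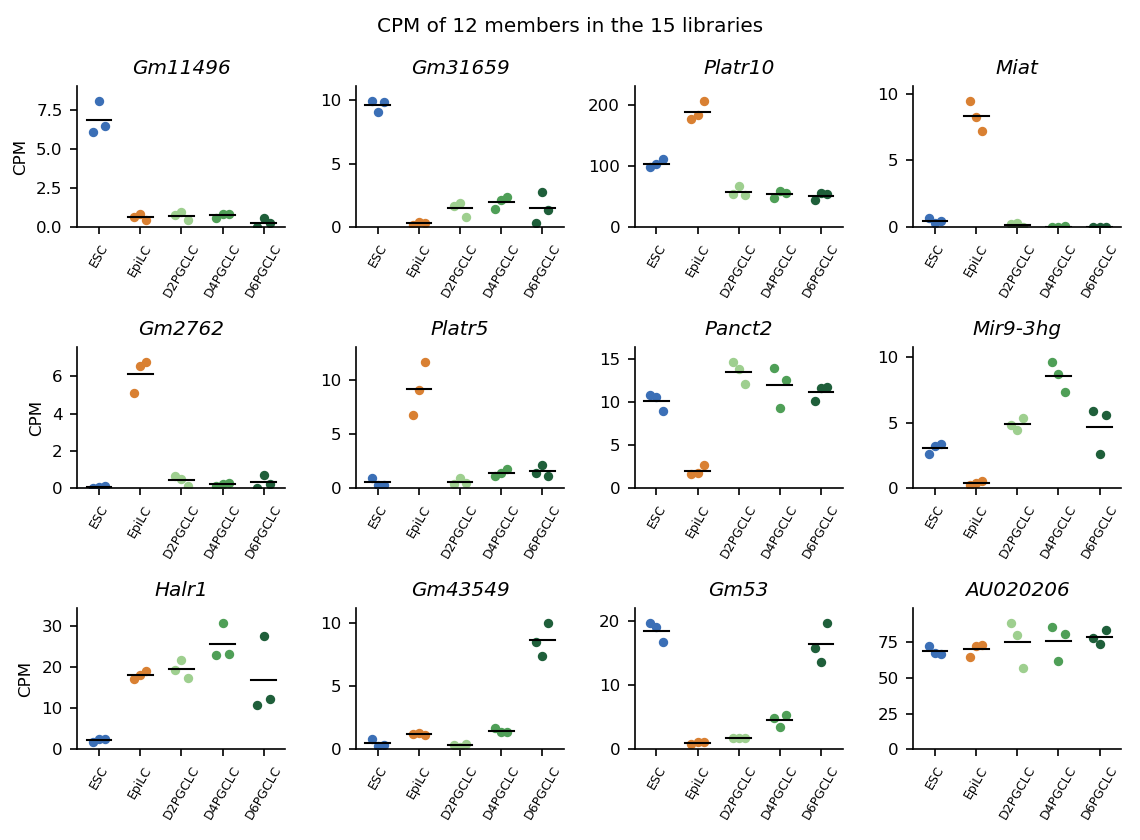
CPM of 12 members in the 15 libraries, each panel from 0 on its own linear axis. Points are libraries and lines the group means of 3. Gm11496 and Gm31659 stand out in ESC, Miat, Gm2762 and Platr5 in EpiLC, and Gm43549 in D6PGCLC, while AU020206 is level.

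By the ratio of the highest to the second condition, Miat led in EpiLC (17.3), Gm11496 in ESC (8.95), Gm43549 in D6PGCLC (5.86), Mir9-3hg in D4PGCLC (1.76) and Gm20707 in D2PGCLC (1.46). The second in rank was Gm16233 in EpiLC (15.1), 2310043M15Rik in ESC (5.95), 2410021H03Rik in D6PGCLC (1.95), Lrp8os2 in D2PGCLC (1.41) and Halr1 in D4PGCLC (1.31). Mir9-3hg, host of miR-9, led in D4PGCLC at 9.61, 8.68 and 7.33 CPM, with 2.59, 3.19 and 3.36 in ESC, 0.216, 0.399 and 0.584 in EpiLC, 4.79, 4.43 and 5.37 in D2PGCLC and 5.89, 2.62 and 5.59 in D6PGCLC. It fell and rose at the first 2 steps (log2 fold change 3.54 ± 0.34 (SE), adjusted p = 7.05e-08 in D2PGCLC). 4833407H14Rik rose in D2PGCLC from 2.05, 2.42 and 2.27 to 8.2, 12.5 and 7.5 CPM (log2 fold change 2.01 ± 0.21 (SE), adjusted p = 1.91e-07), and D230017M19Rik from 0.539, 1.44 and 0.653 to 4.67, 5.4 and 4.94 CPM (log2 fold change 2.44 ± 0.34 (SE), adjusted p = 7.73e-06). Both had all 9 PGCLC libraries above all 6 earlier ones. For 4833407H14Rik 67.5% of exon bases lie opposite another gene.

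Gm43549 (chr3:55578105-55582730, minus strand) led the members highest in D6PGCLC by its ratio to the second condition. It was at 8.5, 7.44 and 10 CPM in D6PGCLC and at 0.208 to 1.71 CPM in the 12 other libraries. Every step was called, up in EpiLC (log2 fold change 1.43), down in D2PGCLC (-1.99), up in D4PGCLC (2.18) and up in D6PGCLC (log2 fold change 2.45 ± 0.31 (SE), adjusted p = 7.67e-05). Gm53 (chr11:96251105-96264868, plus strand), 20352 bases from the start of Hoxb9, took another course. It was at 19.7, 19.1 and 16.7 CPM in ESC, 0.79, 1.14 and 1.17 in EpiLC, 1.79, 1.7 and 1.72 in D2PGCLC, 4.95, 3.54 and 5.34 in D4PGCLC and 15.8, 13.6 and 19.7 in D6PGCLC. It fell in EpiLC (log2 fold change -4.05 ± 0.21 (SE), adjusted p = 1.38e-11) and rose at both late steps (log2 fold change 1.73 ± 0.18 (SE), adjusted p = 1.37e-05 from day 4 to 6), until the day 6 libraries overlapped ESC.

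Fewer counts or smaller steps marked the other late risers. 2410021H03Rik was at 0.323, 0.245 and 0.481 CPM in EpiLC, 1.56, 1.94 and 1.24 in D2PGCLC and 4.99, 4.61 and 5.78 in D6PGCLC (log2 fold change 1.54 ± 0.32 (SE), adjusted p = 9.12e-04). Gm33301 went from 0.474, 0.355 and 0.571 CPM in ESC to 3.45, 3.66 and 4.23 in D4PGCLC and 5.22, 4.31 and 5.69 in D6PGCLC, where it was higher than in ESC (log2 fold change 3.30 ± 0.41 (SE), adjusted p = 1.66e-06). 9330102E08Rik, at 0.983, 1.37 and 1.61 CPM in ESC and 6.18, 6.23 and 6.73 in D6PGCLC (log2 fold change 2.15 ± 0.24 (SE), adjusted p = 4.18e-07), passed no single step. Gm41031 and C78283 fell in D2PGCLC and rose in D4PGCLC, to 4.79, 4.05 and 6.31 and 5.01, 4.14 and 7.07 CPM. Only Platr22 fell from D4PGCLC to D6PGCLC (log2 fold change -1.05 ± 0.28 (SE), adjusted p = 0.0188), and without D6PGCLC replicate 1, at 1.97 CPM against 4.54 and 5.35, its log2 fold change was -0.73 and not called.

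Of 38 genes on a list of pluripotency-associated transcripts (the Platr genes, Lncenc1 and others), 30 were tested and 14 were members. Over the 30, 1 rose and 6 fell from ESC to EpiLC (all genes 14.4% and 11.9%), and 0 rose and 9 fell from EpiLC to D2PGCLC (all genes 11% and 14.4%). In D6PGCLC 2 were higher and 10 lower than in ESC (all genes 15.8% and 10.3%), with a median log2 fold change of -0.67, where the median of all genes was -0.0022. Among the 14 members, Platr13, Platr26 and Platr28 fell in EpiLC and Platr5 rose. In D2PGCLC Platr3, Platr5, Platr10, Platr11 and Platr27 fell, and 0 of the 14 rose.

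Platr10, the highest of the Platr members, was at 98, 102 and 111 CPM in ESC, 177, 183 and 206 in EpiLC and 44.8 to 67.7 in PGCLCs. Its fall in D2PGCLC (log2 fold change -1.74 ± 0.12 (SE), adjusted p = 5.97e-10) left all PGCLC libraries below ESC. Platr3 was level between ESC (14.4, 13.7 and 15.1 CPM) and EpiLC (13, 13.7 and 17.3), fell to 2.39, 2.87 and 2.21 in D2PGCLC (log2 fold change -2.60 ± 0.18 (SE), adjusted p = 7.95e-10) and was at 4.82, 4.29 and 5.78 in D4PGCLC and 7.57, 8.14 and 10.2 in D6PGCLC. Its D6PGCLC libraries were still below all ESC libraries. Platr27 was at 8.81, 8.11 and 9.7 CPM in ESC, 14, 13.4 and 17.9 in EpiLC, 3.71, 4.25 and 3.3 in D2PGCLC and 9.05, 8.26 and 8.76 in D6PGCLC, with EpiLC above ESC without overlap and all D6PGCLC libraries within the ESC range. Platr5, in contrast, was an EpiLC gene at 6.75, 9.14 and 11.7 CPM, with 0.983, 0.31 and 0.302 in ESC. Platr13 fell from 16, 12.9 and 15.2 CPM in ESC to 2.37, 2.09 and 1.61 in EpiLC and was at 1.11 to 4.93 in PGCLCs. Platr4, Platr7 and Platr20 were called in none of the 6 comparisons. In Platr11, at 2.09, 4.5 and 1.41, 1.68, 5.13 and 1.58 and 1.45, 5.01 and 1.08 CPM on days 2, 4 and 6, replicate 2 of each day was the high value, and its fall in D2PGCLC was not called without D2PGCLC replicate 1 or 3.

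Among nuclear, chromatin and growth control RNAs, 11 were listed and tested and 6 were members. From ESC to EpiLC 2 of the 11 rose and 4 fell (all genes 14.4% and 11.9%), and 0 were higher and 4 lower in D6PGCLC than in ESC (all genes 15.8% and 10.3%). Besides Neat1 and Miat, no member of this list was called. Norad (2900097C17Rik) was at 107, 106 and 116 CPM in ESC, 71.5, 76.1 and 82.2 in EpiLC and 140.4 to 174 in PGCLCs. Its log2 fold change of 1.00 from EpiLC to D2PGCLC had an adjusted p of 1.39e-08 and stopped at the fold limit, with no overlap of the 2 groups. Oip5os1 (1700020I14Rik) was at 89.2 to 99.2 CPM in ESC, 62.1 to 66.5 in EpiLC and 63.7 to 99.1 in PGCLCs. Tug1, which starts 482 bases from Morc2a on the other strand, ranged from 43 to 84.1 CPM and Pvt1, the neighbour of Myc, from 2.87 to 6.74 CPM over all libraries.

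Of 18 snoRNA host genes tested, 4 were members (Snhg6, Snhg12, Snhg20 and Epb41l4aos), and at each of the 4 steps at most 1 of the 18 rose and 1 fell, where 14.4% and 11.9% of all genes were called at the first step and 11% and 14.4% at the second. Snhg20 was the member that moved, from 13, 13.3 and 12.4 CPM in ESC to 3.95, 3.34 and 4.33 in EpiLC, 20.7, 17.1 and 20.7 in D2PGCLC and 31.4, 27 and 31.5 in D6PGCLC. It fell in EpiLC (log2 fold change -1.63 ± 0.17 (SE), adjusted p = 1.51e-07), rose in D2PGCLC (log2 fold change 2.29 ± 0.17 (SE), adjusted p = 1.61e-09) and ended higher than in ESC (log2 fold change 1.11). Snhg6 ranged over 11.3 to 23.5 CPM and Snhg12 over 8.18 to 21.6 CPM, the latter with its lowest and highest PGCLC values in D4PGCLC and D6PGCLC.

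Of 7 microRNA host genes tested, 1 rose and 4 fell from ESC to EpiLC (all genes 14.4% and 11.9%), and 2 rose and 2 fell in D2PGCLC (all genes 11% and 14.4%). The 4 that were members took different courses. Mir17hg was at 18.9, 20.7 and 19.2 CPM in ESC, 27.1, 40.1 and 32.6 in EpiLC and 14.5 to 33.4 in PGCLCs, with no call. Mir124a-1hg fell from 5.76, 5.68 and 5.2 CPM in ESC to 0.18, 0.276 and 0.0687 in EpiLC (log2 fold change -4.84 ± 0.52 (SE), adjusted p = 3.11e-07) and was at 0.522 to 2.24 in PGCLCs. Mir142hg fell at both steps, from 13, 10.9 and 6.78 CPM to 6.18, 2.7 and 3.64 and then 0.897, 1.76 and 0.833, and its first step was not called without ESC replicate 1 or EpiLC replicate 2. Among the members 3 of the 4 fell in EpiLC, and Mir9-3hg and Mir124a-1hg rose in D2PGCLC. miR-9 and miR-124 are known as neuronal microRNAs, and the neural marker list summed to 86.5 to 91.9 CPM in ESC, 75.0 to 95.0 in EpiLC, 84.1 to 118 in D2PGCLC, 84.4 to 95.7 in D4PGCLC and 34.0 to 52.1 in D6PGCLC. In D6PGCLC Mir9-3hg was at 4.7 ± 1.81 CPM and Mir124a-1hg at 1.57 ± 0.92 CPM. Whether the course of either host is tied to neural expression was not tested. On the list of antisense partners of developmental transcription factors 5 of 27 genes were tested, and Halr1 was the only member. Of the 5, 2 rose and 2 fell from ESC to EpiLC, and 2 rose and 1 fell in D2PGCLC. The list was fixed by name, and Vax2os, a member that overlaps Vax2 on the other strand, was not on it.

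The 8 steadiest members, by the ratio of highest to lowest condition mean, were 1110019D14Rik, AU020206, 4933404O12Rik, Lncenc1, Epb41l4aos, A530017D24Rik, E430024I08Rik and Gm46430. AU020206 was at 66.7 to 72.7 CPM in ESC and 56.7 to 88.4 CPM elsewhere. 4933404O12Rik, at 34.9 to 35.6 CPM in ESC and 25.7 to 30.5 CPM in the 12 other libraries, kept within a factor of 1.5. None of the 8 was called in any of the 6 comparisons, which follows from choosing them by a small ratio and is no separate result. A missing call does not show that levels were the same, and Epb41l4aos, at 12.5, 16.6 and 27.8 CPM in D4PGCLC, spread widely within a day.

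By position, 20 members were divergent from a coding gene (start sites within 5 kb, opposite strands, pointing apart), 33 overlapped a coding gene on the other strand and 97 did neither. Among the other 7967 genes 8.36% were divergent and 35.7% overlapping, against 13.3% and 22% of members. Likeness of course was measured as Pearson's r of log2(CPM + 1) over the 5 condition means, where the points share libraries. The median r was 0.24 for divergent pairs (12 of 20 above 0) and 0.41 for overlapping pairs (26 of 33 above 0, 1 without a value), next to 0.33 for the nearest coding gene of the 97 others (59 of 91 with a value above 0).

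Panct2 and Slco4c1, an organic anion transporter gene, had the highest r of 0.98. Slco4c1 was at 32.4 ± 1.61 CPM in ESC, 12.4 ± 0.875 in EpiLC and 31.5 ± 3.47 in D2PGCLC (SD, n = 3), low in EpiLC as Panct2 was. 2410021H03Rik and Epb41l3, a membrane skeleton gene, also had r = 0.98, and Epb41l3 ran from 10.5 ± 0.614 CPM in EpiLC to 45.6 ± 4.43 in D6PGCLC. Gm14230, whose start lies 115 bases from that of Tgif2, a homeobox repressor gene, was at 18.4 ± 2.95 CPM in EpiLC, 33.1 ± 1.91 CPM in D2PGCLC and 19.7 ± 0.711 CPM in D6PGCLC, and Tgif2 was at 95.6 ± 2.83, 217 ± 1.04 and 142 ± 7.89 CPM (r = 0.88). Gm2694 with Cbln1 (r = 0.94), Nphs1os with Nphs1 (r = 0.90) and 4933431E20Rik with Gstm5 (r = 0.83) completed the 6 highest among pairs with both genes at 5 CPM or more in their highest condition.

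The 3 lowest of these were Nespas with Gnas (r = -0.86), Lrp8os2 with Lrp8 (r = -0.82) and Gm11496 with Trim25 (r = -0.67). Lrp8os2 rose in EpiLC (log2 fold change 1.17 ± 0.21 (SE), adjusted p = 1.29e-04) and was at 14.8, 10.4 and 14.9 CPM in D2PGCLC, while Lrp8, a lipoprotein receptor gene, went from 20.4 ± 2.65 CPM in EpiLC to 6.38 ± 1.6 in D2PGCLC. Gnas was lowest in D2PGCLC, at 49.5 ± 3.41 CPM against 101 ± 6.69 in EpiLC. Nespas had its highest mean in D2PGCLC, 13.6 ± 3.01 CPM, with no call at any step. Trim25 stayed between condition means of 209 and 268 CPM while Gm11496 dropped after ESC. For Nespas 38.5% of exon bases lie opposite another gene.

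**Figure D5:**
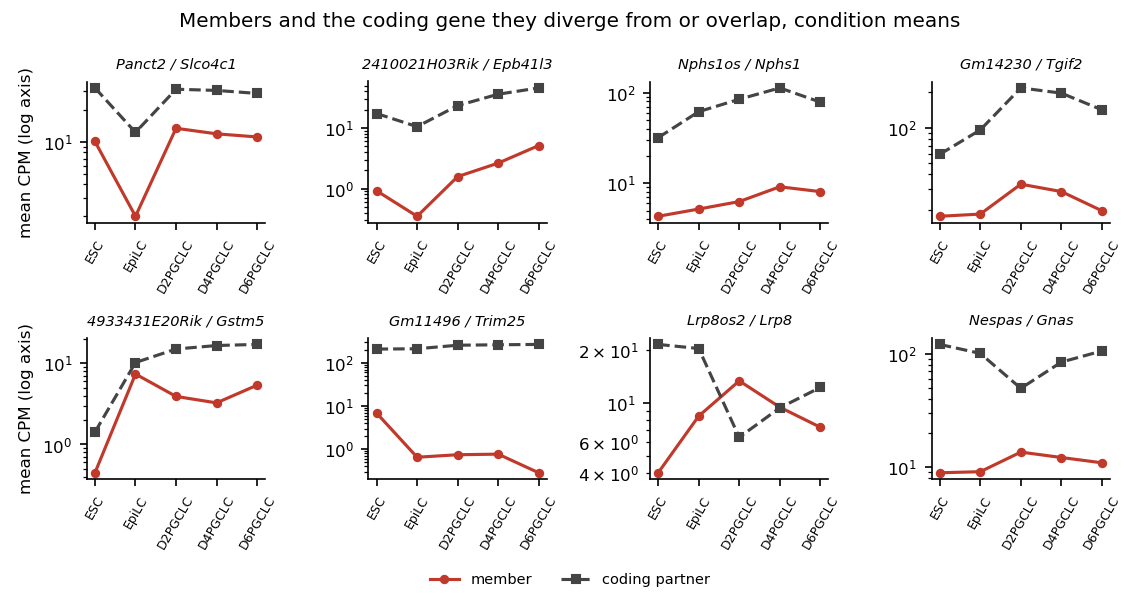
Condition means in CPM (log axis) of 8 members (red circles) and of the coding gene each diverges from or overlaps (grey squares, dashed), over the 5 stages. The first 5 pairs run alike over the stages (r from 0.83 to 0.98), and in the last 3 the courses differ (r from -0.86 to -0.67).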

How the data were processed

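RNA was extracted with TRIzol, and the authors sequenced stranded libraries (NEBNext Ultra II Directional). The submitters' processing notes name Trim Galore, FastQC, STAR and mm10. The counting tool, its strand setting and its treatment of reads with several positions are not given in the sources used here. The authors deposited 1 table of raw counts per Ensembl gene, not normalized, with transgene and endogenous reads not separated.

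Gene types and positions came from GENCODE M21 and sequences from RefSeq (GRCm38.p6) and GENCODE transcripts. CPM was the count over the library total. Levels are CPM ± SD. edgeR 4.0.16 (R 4.3.3) quasi-likelihood tests used TMM factors, genes kept by filterByExpr with a minimum count of 10, all 15 samples in 1 fit and Benjamini-Hochberg adjustment over 18090 genes. The standard error is the log2 fold change divided by the square root of F. Data were simulated for EpiLC against ESC on 17490 genes. Of genes changed by a log2 fold of 1.5, 90 of 100 were called, and of those changed by 2.5, 98 of 100, with 2 false calls. Changed genes were drawn from those with a mean above 1 CPM, and all other genes were simulated without change. Recovery for genes with lower means was not tested.

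Libraries of 22555021 to 42725681 counts put 3 counts at 0.0702 to 0.133 CPM, a limit that covers counting error only. Replicates of a group differed by more than sampling noise, so each counted once.

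The members, gene lists, motifs and markers were chosen with earlier results of these data known. Genes were named by rule: the 10 highest, 5 per condition by ratio to the second condition, 5 per direction and step among called genes without overlap, list members, the 8 steadiest, and the 6 highest and 3 lowest pair correlations. Alternatives were another size factor, DESeq2 1.42.0, no filter, no fold limit, 2-group fits, a replicate block, other memberships, non-overlapping exons and each replicate left out. Further sets were chosen after the data were seen, without Gm42418 and Gm26917 and without members RefSeq types as coding or pseudogene.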

Additional observations from a re-analysis of the deposited data

Results flagged for a closer look

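For 15 of the named members the change from ESC differed between D6PGCLC and D2PGCLC. The difference was tested as D6PGCLC against D2PGCLC in the edgeR fit over all genes, and each value is that log2 difference.

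It was largest for Gm43549 (4.63) and Gm53 (3.07), the 2 members that rose at both late steps. It was 1.94 for C78283, 1.81 for Ptprtos, 1.68 for Gm33301, 1.67 for Gm41031, 1.63 for Platr3, 1.54 for 2410021H03Rik, 1.20 for Platr5 and 1.05 for Platr27. For Platr5 the call was lost without D2PGCLC replicate 1 or 3 or D6PGCLC replicate 2, and for Platr27 without D2PGCLC replicate 3.

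Negative differences were found for Miat (-3.74), Gm16233 (-2.25), Gm14221 (-1.24), Platr22 (-1.12) and Lrp8os2 (-1.05). Miat and Gm16233 were both under 0.5 CPM in every PGCLC library, where the fitted value depends on few counts, and Miat had 1 count in all of D6PGCLC. The Miat call was lost without D2PGCLC replicate 2, that of Platr22 without D6PGCLC replicate 1, and that of Lrp8os2 without D2PGCLC replicate 1 or 3 or D6PGCLC replicate 2 or 3. Members in this list were picked from those named in the text, and 20 members in all were called between these days. Of all members, 8.67% were called higher and 4.67% lower, where 10.9% and 2.75% of all genes tested were.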

How the results depend on the processing

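Of 110 called fold changes of named members, 94 kept their direction and call under every alternative and 0 turned direction. Only changes called in the main fit entered, and many of these members were named for large changes. How many were kept was therefore partly set by that choice. With no fold limit, members called higher and lower were 30 and 61 in EpiLC against ESC, 44 higher in D2PGCLC against EpiLC, 16 and 3 in D4PGCLC against D2PGCLC, 12 and 7 in D6PGCLC against D4PGCLC, 27 and 15 in D6PGCLC against D2PGCLC, and 33 and 65 in D6PGCLC against ESC. With only the 96 members whose exons overlap no other exon, fewer genes by construction, 12 and 23 were called in EpiLC against ESC, 10 higher in D2PGCLC against EpiLC, 4 lower in D6PGCLC against D2PGCLC and 21 lower in D6PGCLC against ESC. Lower calls from D4PGCLC to D6PGCLC, 1 as reported, were 3 with DESeq2, 3 with no filter, 0 with only these groups in the fit, 2 with the replicate block and 2 with members ranked by CPM per kilobase. DESeq2 called 1 lower from D2PGCLC to D4PGCLC. With members ranked by the mean over all 15 samples, 2 were higher from D4PGCLC to D6PGCLC and 4 lower from D2PGCLC to D6PGCLC. Members highest in D2PGCLC, 8 as reported, numbered 16 by TMM-normalized CPM and 15 by the median of replicates. The share of all genes called is not given for these alternatives or with a replicate left out. The counts therefore show only how calls among members moved with the setting. The cause of the differences between settings was not tested. Without the 20 members that RefSeq types as coding or pseudogene, a choice made after seeing the data, 19 and 34 were called in EpiLC against ESC. The members' share of counts, without Gm42418 and Gm26917 (also chosen after seeing the data), was 0.373%, 0.309%, 0.269%, 0.275% and 0.305% from ESC to D6PGCLC, and without Malat1 0.629% in D6PGCLC.

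Leaving out each replicate in turn gave 17 to 23 higher and 37 to 39 lower in EpiLC against ESC, 23 to 25 and 33 to 36 in D2PGCLC against EpiLC, 5 to 9 and 0 to 1 in D4PGCLC against D2PGCLC, 2 to 5 and 1 to 7 in D6PGCLC against D4PGCLC, 11 to 16 and 6 to 11 in D6PGCLC against D2PGCLC, and 13 to 17 and 29 to 38 in D6PGCLC against ESC. Members highest in ESC numbered 67 to 73, in EpiLC 28 to 34, in D2PGCLC 7 to 15, in D4PGCLC 13 to 20 and in D6PGCLC 22 to 32. The share of counts on members ran from 0.924% to 1.35% in ESC, 0.656% to 0.835% in EpiLC, 0.703% to 0.895% in D2PGCLC, 0.820% to 0.933% in D4PGCLC and 0.649% to 0.686% in D6PGCLC.

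The labels do not say that a replicate number marks a shared culture or day. Same-numbered deviations correlated at 0.0358 on average (-0.0285 to 0.208, 6 of 30 pairs over 0.1) and differently numbered ones at -0.0179 (0 of 60 over 0.1), and 9 of 15 samples correlated best with their own number, a hint of pairing in some samples that was not enough to treat the numbers as pairs. The replicate block gave 19 higher and 39 lower in EpiLC against ESC. Depth limits the lowest members, since 3 counts correspond to 0.0702 to 0.133 CPM.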

Other observations

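Members lay next to each other in 10 places, with a gap under 100 kb between neighbours. Gm47469 and Gm46430, 15102 bases apart on the same strand of chromosome 13, had r = 0.90 over the 5 condition means of log2(CPM + 1). Platr4 and 2400006E01Rik, 28055 bases apart on chromosome 3, also had r = 0.90, and Gm19705 and Platr22, 5407 bases apart on chromosome 1, had r = 0.45. Gm53 and Hoxb9, its nearest coding gene, had r = 0.94 without overlapping. These values are descriptions over 5 points that share libraries.

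CpG content differed little between members' promoters and all promoters, with a median of 8 CpG against 7 in 300 bases. By the stage of the highest mean, the median was 10.5 for 40 ESC promoters, 6 for 23 in EpiLC, 5 for 4 in D2PGCLC, 12.5 for 14 in D4PGCLC and 6 for 15 in D6PGCLC. Members had a median exon length of 2281 bases against 966 in the other genes of these types, and 10.7% against 6.61% had a single exon.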
